A study of Mus musculus with 6 samples.

Results

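Sox1, Sox2, Sox14 and Sox21 of the SoxB group and Sox4, Sox11 and Sox12 of the SoxC group were examined in the E12 mouse whisker pad, for the position and the strength of H3K4me1 around them. These 7 genes were taken by family membership, with earlier results of these data known, out of 21755 protein-coding genes of the GENCODE M21 annotation (mm10; chromosomes 1 to 19 and X). H3K4me1, the mono-methylation of lysine 4 of histone H3, marks enhancers, the distal switches of genes, and the flanks of start sites. The assay was CUT&Tag: a transposase tethered to the antibody cuts and tags nearby chromatin, and the tagged DNA is sequenced. Whole whisker pads of wild-type embryos at embryonic day 12, of the strain labelled B6/J2, were dissociated to single cells, and 3 samples received a rabbit antibody to H3K4me1 while 3 received IgG. Peak lists of the 3 H3K4me1 samples, called replicates 1, 2 and 3 after their titles, were analysed, and the IgG samples were not used here. No label says whether the replicates came from separate litters or pools, so the spread between them may be technical. With a single group of 3 samples no difference between conditions could be tested, and every value is a description.

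Sox proteins bind DNA through an HMG box that bends the double helix, and they usually act beside a partner factor. SoxB genes are known for their part in neural and sensory progenitors: Sox1 and Sox2 (subgroup B1) activate transcription and hold progenitors undifferentiated, whereas Sox14 and Sox21 (subgroup B2) act mainly as repressors. Sox2 also marks the dermal condensate and the dermal papilla of hair and whisker follicles, as well as Merkel and Schwann lineages. SoxC genes encode activators that are broadly active in embryonic mesenchyme and in differentiating neurons, where Sox4, Sox11 and Sox12 share functions in the survival of progenitor cells.

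A peak was assigned to a gene when it overlapped the gene body or the 5 kb on either side (called a gene peak), or when its position of maximum signal lay within 500 kb and nearer to that gene's start site than to any other protein-coding start site. The bases that meet the second condition form the neighbourhood of the gene. The total signal of a peak is its summed read coverage and was not scaled to depth, so it is given as the percentile among all peaks of the same replicate. The lists held 16788, 12969 and 13998 peaks in replicates 1, 2 and 3, with summed signals of 8.22e+08, 9.86e+08 and 7.44e+08. The study's methods state a sequencing depth, but the number of reads behind each list was not analysed here. Because each list keeps only the strongest 1% of covered blocks, a gene with no peak has no block above that limit and is not shown to lack the mark. The source name of 4 of the 6 samples, replicates 2 and 3 among them, reads adult kidney, against titles that name the whisker pad. All 12 facial mesenchyme markers checked had a gene peak in all replicates, against 2 of 12 adult kidney markers (Slc12a1 and Cubn; 4, 4 and 2 markers in replicates 1, 2 and 3), 5 of 10 surface ectoderm markers, 2 of 12 neural markers (Pax6 and Emx2) and 0 of 6 Schwann cell precursor markers. Over all protein-coding genes the share was 15.5% in all replicates, and 24.9%, 22.6% and 19.6% in replicates 1, 2 and 3. The kidney and neural counts in all replicates are thus near the background and say little about those tissues. By replicate, 4, 5 and 2 of the 12 neural markers and 2, 2 and 0 of the 6 Schwann cell precursor markers had a gene peak. In replicates 1 and 2 these counts, and the kidney counts by replicate given above, stood above the background share. In replicate 3 all of them stood below it, on few markers. No base of the Slc12a1 neighbourhood lay under a peak, so Slc12a1 counts only through overlap of its body or flanks.

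The sequence under the strongest recurrent region of Sox1, Sox4 and Sox11 is shown first, since these are the recurrent regions of highest mean percentile of total signal at each gene. A recurrent region is a stretch of overlapping peaks with a peak in every replicate. Where a replicate had more than 1 peak in a region, the percentile given is that of the strongest. Each run is 300 bases of the plus strand of GRCm38.p6 (RefSeq), centred on the median position of maximum signal, and capitals mark ACAAAG and ACAAT, the cores bound by Sox HMG boxes, on either strand.
Sox1 chr8:12468703-12469002: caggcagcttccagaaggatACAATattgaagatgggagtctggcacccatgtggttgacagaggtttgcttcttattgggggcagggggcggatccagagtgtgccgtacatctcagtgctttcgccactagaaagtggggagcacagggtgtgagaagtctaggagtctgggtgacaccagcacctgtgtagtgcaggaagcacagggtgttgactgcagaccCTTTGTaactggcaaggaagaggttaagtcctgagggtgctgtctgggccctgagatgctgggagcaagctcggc
Sox4 chr13:28664377-28664676: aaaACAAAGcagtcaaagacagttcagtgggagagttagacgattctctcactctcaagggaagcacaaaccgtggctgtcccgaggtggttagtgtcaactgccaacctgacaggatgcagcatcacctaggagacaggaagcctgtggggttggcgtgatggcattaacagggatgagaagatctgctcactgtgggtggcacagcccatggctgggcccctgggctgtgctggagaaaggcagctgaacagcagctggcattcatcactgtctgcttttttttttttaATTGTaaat
Sox11 chr12:27139725-27140024: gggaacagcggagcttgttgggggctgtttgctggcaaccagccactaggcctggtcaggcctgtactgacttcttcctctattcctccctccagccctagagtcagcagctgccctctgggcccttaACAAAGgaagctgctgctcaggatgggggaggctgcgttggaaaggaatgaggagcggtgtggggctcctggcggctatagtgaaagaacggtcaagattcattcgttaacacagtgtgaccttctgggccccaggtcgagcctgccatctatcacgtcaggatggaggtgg
The Sox1 window and the Sox4 window each held 1 ACAAAG and 1 ACAAT, and the Sox11 window held 1 ACAAAG near its middle. The window of the Sox12 region lies in the 3′ untranslated region of that gene and its letters are not printed. It held 2 copies of ACAAT and no ACAAAG.

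The promoters of 4 genes are shown next because the members differed in whether H3K4me1 reached the start site. Each run is the 250 bases before the RefSeq start on the strand of the gene (GRCm38.p6), and capitals mark CpG dinucleotides, which are dense in the promoters of developmental genes.
Sox2 promoter chr3:34649745-34649994 (plus strand): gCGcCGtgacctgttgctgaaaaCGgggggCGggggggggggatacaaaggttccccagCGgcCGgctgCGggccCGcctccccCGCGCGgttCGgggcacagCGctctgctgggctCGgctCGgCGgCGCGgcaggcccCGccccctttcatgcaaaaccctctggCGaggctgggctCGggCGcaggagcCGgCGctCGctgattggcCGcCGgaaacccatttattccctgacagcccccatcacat
Sox21 promoter chr14:118237031-118237280 (minus strand): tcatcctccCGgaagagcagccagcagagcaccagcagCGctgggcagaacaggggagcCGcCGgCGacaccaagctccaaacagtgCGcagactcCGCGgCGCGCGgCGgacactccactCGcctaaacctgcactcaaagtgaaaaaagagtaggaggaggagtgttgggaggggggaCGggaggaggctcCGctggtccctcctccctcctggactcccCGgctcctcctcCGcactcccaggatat
Sox11 promoter chr12:27342719-27342968 (minus strand): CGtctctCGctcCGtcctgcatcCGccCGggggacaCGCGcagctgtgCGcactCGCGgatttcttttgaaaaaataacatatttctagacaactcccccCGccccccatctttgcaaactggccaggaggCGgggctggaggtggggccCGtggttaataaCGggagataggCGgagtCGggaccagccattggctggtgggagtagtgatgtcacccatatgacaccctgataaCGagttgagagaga
Sox4 promoter chr13:28953700-28953949 (minus strand): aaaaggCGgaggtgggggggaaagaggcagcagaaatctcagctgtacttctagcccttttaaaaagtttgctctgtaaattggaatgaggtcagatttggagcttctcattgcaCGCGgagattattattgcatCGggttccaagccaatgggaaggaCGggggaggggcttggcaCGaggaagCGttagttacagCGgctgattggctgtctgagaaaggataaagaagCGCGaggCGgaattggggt
These stretches held 27 CpG for Sox2, 17 for Sox21, 17 for Sox11 and 11 for Sox4. Over the full promoter window of 300 bases, which adds 50 bases after the start, the counts were 37 for Sox1, 27 for Sox2, 26 for Sox14, 22 for Sox21, 12 for Sox4, 21 for Sox11 and 47 for Sox12. The median over 32619 RefSeq promoters was 7, and 26.7% of them held at least 20, as did 6 of the 7 members. Sox4 had the fewest of the 7.

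H3K4me1 around the SoxC genes was far more extensive than around the SoxB genes. The 3 SoxC genes were assigned 51, 40 and 44 peaks in replicates 1, 2 and 3 (45 ± 5.57, SD, n = 3), and the 4 SoxB genes 4, 5 and 2 (3.67 ± 1.53). The ranges of both groups were far apart in every replicate, although nearly all SoxC peaks belonged to Sox4 and Sox11. The neighbourhoods summed to similar sizes, 1564 kb for SoxC and 1382 kb for SoxB. Merging overlapping peaks across replicates gave 52 SoxC regions, of which 35 (67.3%) were recurrent, and 8 SoxB regions, of which 1 (12.5%) was recurrent. Among all 19246 merged regions of the lists, 8916 (46.3%) had a peak in all replicates. The share of each list's summed signal in peaks of SoxC genes was 0.300%, 0.264% and 0.386%, and in peaks of SoxB genes 0.0116%, 0.0217% and 0.00668%. The median percentile of the assigned peaks averaged 53.0 ± 9.12 for SoxC and 29.0 ± 6.89 for SoxB (SD over 3 replicates). Of the 146 assigned peaks of all replicates, 18 reached percentile 90, and they belonged to Sox11 (11) and Sox4 (7). By definition about 90% of each list lies below that percentile, so this count alone does not mark the assigned peaks as strong.

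**Figure D1:**
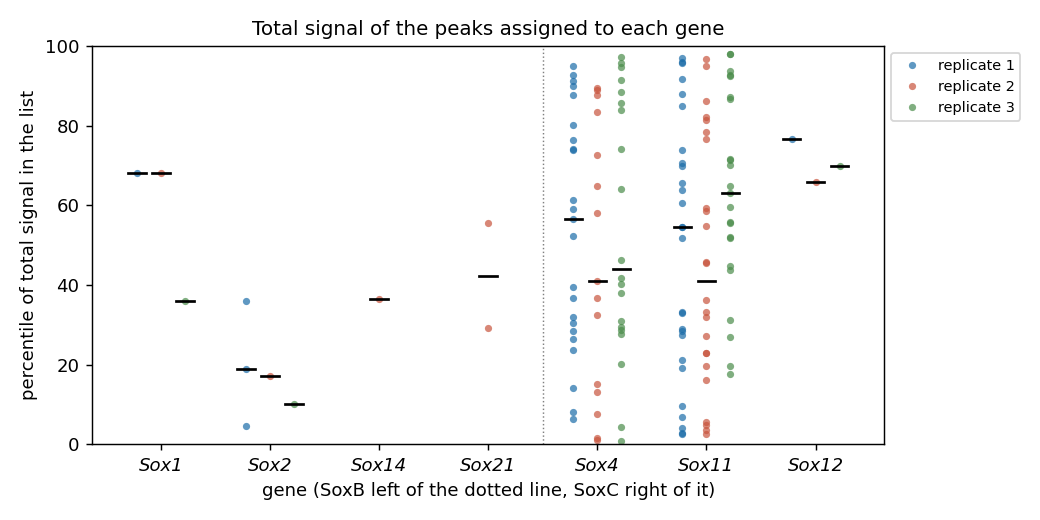
Percentile of total signal (vertical axis, 0 to 100, within the list of each replicate) of every peak assigned to each gene (horizontal axis). Points are peaks, colours are replicates and black bars are medians. Sox4 and Sox11 peaks span nearly the whole range up to 97.2 and 98.1, whereas no Sox2 peak lies above 35.9 and Sox14 and Sox21 have peaks in replicate 2 alone.

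A gene peak was found at 4, 5 and 3 of the 7 genes in replicates 1, 2 and 3, and at Sox11 and Sox12 in all of them. The shares over all protein-coding genes were, as above, 24.9%, 22.6% and 19.6%, and 15.5% in all replicates. Sox4 had a gene peak in replicates 1 and 3, Sox2 in replicates 1 and 2, and Sox14 and Sox21 in replicate 2. Sox1 had none. At least 1 recurrent region was assigned to 4 of the 7 (Sox1, Sox4, Sox11 and Sox12), against 19.7% of all genes.

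Sox1, an early marker of the neural plate, had a single region in a neighbourhood of 147 kb. The region (chr8:12465949-12470307) lay 73.6 kb 3′ of the start site and had a peak in every replicate. The replicate 2 peak alone reached into the 5′ end of the noncoding gene Gm33326, on the minus strand. Its percentiles in replicates 1, 2 and 3 were 68.0, 68.1 and 36.1 (57.4 ± 18.5). Replicate 3 stood well below the others. The maxima of the 3 peaks lay within 320 bp. No peak came nearer than 66.5 kb to the start site, and the bases under peaks made up 1.79%, 2.96% and 1.49% of the neighbourhood.

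Sox2, the B1 gene of pluripotent, neural and dermal papilla cells, had few and weak peaks in a neighbourhood of 785 kb, which was larger than that of 98.8% of protein-coding genes. It was assigned 3, 1 and 1 peaks in replicates 1, 2 and 3, in 4 regions, and none of them was recurrent. The region at the gene itself (chr3:34647962-34651379) had a peak in replicate 1 at percentile 35.9 and in replicate 2 at percentile 17.1. The region lies inside the long noncoding gene Sox2ot. The replicate 1 peak covered 957 coding bases of Sox2, while the replicate 2 peak ended before the GENCODE start site. The maximum lay 0.51 kb 3′ of the GENCODE start site in replicate 1 and 0.996 kb 5′ of it in replicate 2. In replicate 3 the nearest peak edge was 451 kb away. The other Sox2 peaks lay 3′ of the gene, at 187 kb and 378 kb in replicate 1 (percentiles 18.8 and 4.62) and at 453 kb in replicate 3 (percentile 10.2). The distal peaks thus occurred in a single replicate each. In a whole pad, a strong mark in few cells and a weak mark in many cells cannot be told apart.

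Sox14 and Sox21, the B2 repressors, had peaks in replicate 2 and in no other. Sox14, which marks interneurons, had a single peak (chr9:99868105-99872952) 4.52 kb 3′ of its start site, at percentile 36.6. This peak was broad and low, since its length was at percentile 71.0 but its maximum signal was at percentile 3.67. Replicates 1 and 3 had their nearest peak 243 kb away, beyond the Sox14 neighbourhood. Sox21, which counters B1 activity during neurogenesis and is also known from hair shaft cells, had a peak over its start site (chr14:118235172-118237690, percentile 29.1) and a stronger peak 10.9 kb 3′ (chr14:118225430-118229777, percentile 55.5). The start-site peak covered 464 coding bases and 1395 bases of the 5′ untranslated region, and reached into the noncoding gene Gm4675. In replicates 1 and 3 the nearest peaks to Sox21 were 89.5 kb and 124 kb away.

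The start site, taken as the 5′ end of the GENCODE gene, lay under a peak in no replicate for 5 of the 7 genes, in replicate 1 for Sox2 and in replicate 2 for Sox21. No gene of the 7 met this in all replicates, a state reached by 1.8% of all protein-coding genes. In at least 1 replicate it was met by 2 of 7, against 8.07% of all genes. For Sox2 and Sox11 the outcome turned on the annotation. At Sox2 the replicate 2 peak ended 4 bp before the GENCODE start, while the RefSeq start lies 410 bp further 5′ and was under a peak in replicates 1 and 2. The RefSeq start of Sox11 lies 144 bp from the GENCODE start and was under a peak in replicate 1. The nearest peak edge to the Sox11 start site was 96 bp, 3291 bp and 2272 bp away on the 5′ side in replicates 1, 2 and 3. The replicate 1 peak, which is also the one over the RefSeq start, was near the floor of its list, at percentile 2.52. Those of replicates 2 and 3 stood at percentiles 36.3 and 59.6. At Sox12 the nearest peak edge was 1416 bp, 1470 bp and 2209 bp away on the 3′ side. At Sox4 it was 4663 bp and 4728 bp on the 3′ side in replicates 1 and 3, but 65952 bp in replicate 2. Sox11 and Sox12 thus had H3K4me1 close to the start site and on opposite sides of it.

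Sox4, a SoxC activator of mesenchymal and epithelial progenitors, had 23, 15 and 20 assigned peaks (19.3 ± 4.04), which covered 14.6%, 9.43% and 14.3% of a neighbourhood of 609 kb. Replicate 2 had the fewest. They formed 24 regions, of which 14 were recurrent. All 24 lay on the 3′ side of the gene, within 348 kb, and 0 lay in the 260 kb of the neighbourhood on the 5′ side, toward Cdkal1, the protein-coding neighbour there. On the 3′ side the next protein-coding gene is Gm11361. The long noncoding gene 2610307P16Rik (chr13:28460034-28885620, minus strand) overlapped 23 of the 24 regions and all 14 recurrent ones. These lay between 71.6 kb and 324 kb from the start site. The largest gap between neighbouring regions, 58.6 kb, separated this run from the region nearest the gene (chr13:28946372-28949050), which reached 132 bases into the 3′ untranslated region of Sox4. That region had a peak in replicate 1 (percentile 23.5) and replicate 3 (percentile 20.1), with maxima within 2 bp.

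The strongest recurrent Sox4 region (chr13:28661554-28669007), whose sequence is printed above, lay 289 kb 3′ of the start site at percentiles 95.0, 89.4 and 95.7 (93.4 ± 3.47). The maxima of its peaks were spread over 1260 bp. The highest single Sox4 peak (percentile 97.2 in replicate 3) lay in chr13:28689048-28701205, 257 kb 3′, with 89.9 and 83.5 in replicates 1 and 2 (90.2 ± 6.87). At chr13:28753509-28760948 the percentiles were 92.6, 88.8 and 94.6, and the maxima coincided within 5 bp. At chr13:28807675-28816096 they were 87.6, 72.7 and 85.7, with maxima within 1 bp. At chr13:28627464-28631913, 324 kb 3′ of the start site, they were 91.1, 87.8 and 84.0, with maxima within 44 bp. The remaining recurrent regions had lower mean percentiles, and some varied widely, such as that at 184 kb 3′ with percentiles of 59.1, 1.16 and 64.0. No Sox4 region reached percentile 90 in every replicate, and 4 reached percentile 80.

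Sox11, the SoxC gene of neurons and craniofacial mesenchyme, had the most peaks of the 7, with 27, 24 and 23 (24.7 ± 2.08). They covered 11.1%, 9.99% and 11.2% of a neighbourhood of 937 kb. The protein-coding neighbours are Dcdc2c on the 5′ side and Cmpk2 on the 3′ side. The start site of Dcdc2c lies 1206 kb away, so the 500 kb limit set the 5′ edge of the neighbourhood. Of 27 regions 20 were recurrent. In contrast to Sox4 they lay on both sides of the gene: 18 on the 3′ side (14 recurrent) and 9 on the 5′ side (6 recurrent). The recurrent regions reached from 224 kb 5′ to 379 kb 3′ of the start site. The largest gap, 117 kb, began just 5′ of the gene. The noncoding gene Gm9866 (chr12:27050950-27160633) overlapped 5 of the recurrent regions.

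The strongest recurrent Sox11 region (chr12:27133085-27143087, printed above) lay 203 kb 3′ of the start site, within Gm9866, and was 10003 bp long. Its percentiles were 97.0, 96.7 and 98.0 (97.2 ± 0.679), and its maxima fell within 3 bp of each other in all replicates. A further region at chr12:27180201-27189688 stood at 96.0, 94.9 and 98.1. These were the 2 regions of the 7 genes that reached percentile 90 in every replicate. The region nearest the start site (chr12:27342670-27347967) lay outside the GENCODE gene body, with its median position of maximum signal 4.21 kb 5′. Its percentiles were 54.4, 36.3 and 59.6 (50.1 ± 12.3). The 54.4 of replicate 1 belongs to the farther of its peaks there (chr12:27345870-27347935). The nearer one stood at percentile 2.52. Inside the gene, chr12:27334547-27337270 covered 2724 bases of the 3′ untranslated region and had a peak in replicate 1 alone, at percentile 4.03. On the 5′ side the strongest lay 224 kb away (chr12:27562244-27569035), at 91.7, 76.6 and 93.7. Beyond the 500 kb limit, 5 more peaks of the 3 lists had Sox11 as the nearest start site, the closest at 586 kb (replicate 1, percentile 19.4), while the farthest assigned peak lay at 379 kb (percentile 88.0). No other member had peaks past the limit.

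**Figure D2:**
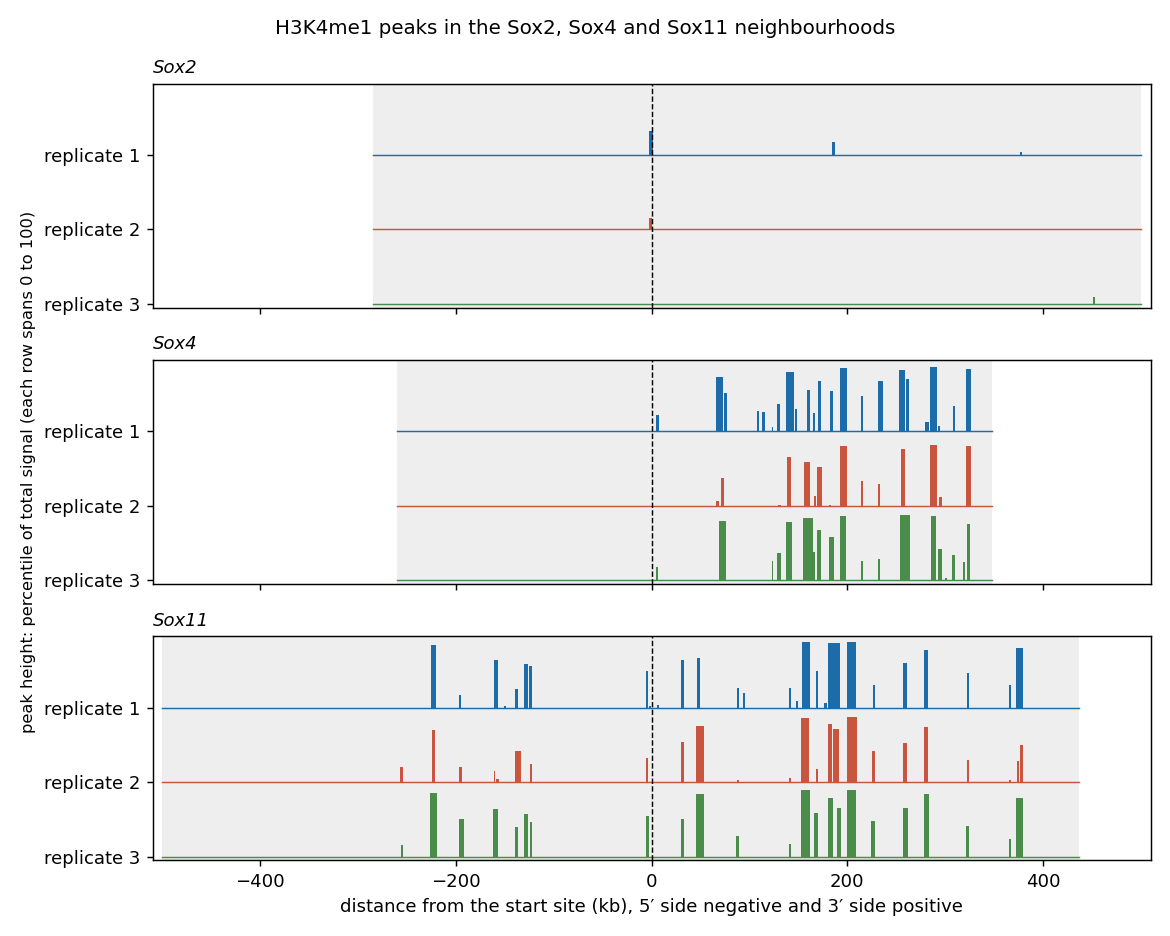
Assigned peaks of Sox2, Sox4 and Sox11 in each replicate against the distance from the start site (kb, 5′ side negative, 3′ side positive). Each bar spans a peak, its height is the percentile of total signal from 0 to 100, grey marks the neighbourhood and the dashed line the start site. The Sox4 peaks all lie on the 3′ side, the Sox11 peaks on both sides, and the Sox2 neighbourhood is nearly empty.

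Sox12, the third SoxC gene, had a single region in a neighbourhood of 19.2 kb, between Zcchc3 and Nrsn2. The region (chr2:152392477-152396647) covered 3037 bases of the 3′ untranslated region of Sox12 and no coding base. It was present in every replicate, at percentiles 76.6, 65.9 and 69.9 (70.8 ± 5.43), and covered 21.7%, 18.7% and 16.8% of the neighbourhood. The maximum lay at the same base in replicates 2 and 3, 3.64 kb 3′ of the start site, and 193 bp from it in replicate 1. By number of peaks the order was Sox11, then Sox4, then the other 5. The lowest value of Sox11 (23) equalled the highest of Sox4 (23), so these neighbours in the order met, and the others overlapped with values of 0 to 3.

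Neighbourhood size differed widely between these genes and bears on how many peaks can be assigned. Of 21670 protein-coding genes with a start site of their own, 80.3% had 0 recurrent regions, and the median neighbourhood was 46.0 kb. Among the 1015 genes with a neighbourhood of at least 500 kb the median was 0 recurrent regions, the 90th percentile 6.6 and the maximum 29. Within these, Sox11 (20 regions) ranked 5 and Sox4 (14) ranked 20, above 99.3% and 97.7% of them, and Sox2 was among the 598 (58.9%) with 0. By the share of bases under peaks in the same 1015, Sox4 (12.8% ± 2.89) ranked 20, Sox11 (10.7% ± 0.651) ranked 36 and Sox2 (0.604% ± 0.515) ranked 386, against a median of 0.232%. Sox2 and Sox11, both with neighbourhoods over 500 kb, thus stood far apart in this ranking.

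**Figure D3:**
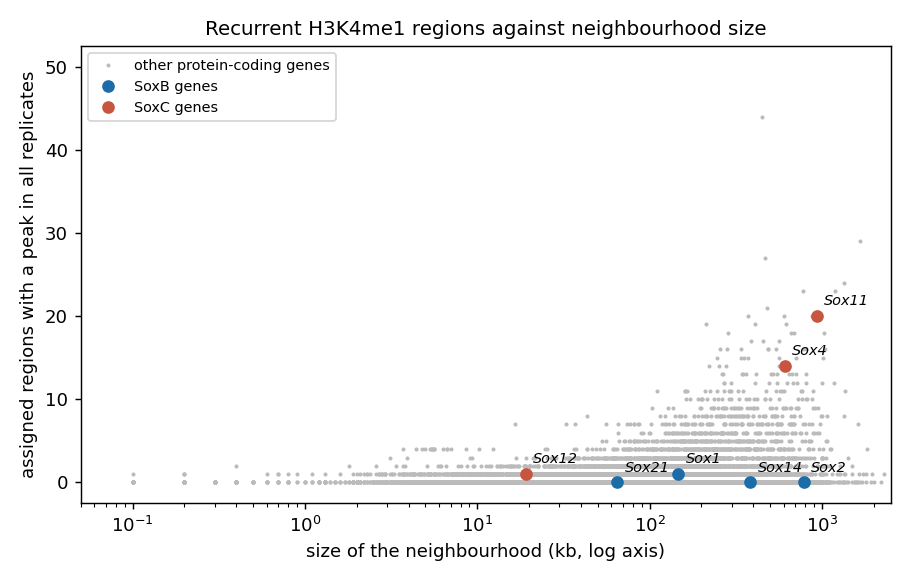
Number of assigned recurrent regions (vertical axis) against the size of the neighbourhood (kb, log axis) for protein-coding genes. Each grey point is a gene, with SoxB genes in blue and SoxC genes in red. Sox11 (20 regions in 937 kb) and Sox4 (14 in 609 kb) stand near the top for their size, and Sox2 (785 kb) and Sox14 (385 kb) lie at 0.

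The recurrent regions were about as long as others: the median was 4889.5 bp for the 36 regions of the 7 genes and 5002.5 bp for all 8916. Recurrent Sox4 regions were 2.38 kb to 12.2 kb long and recurrent Sox11 regions 2.51 kb to 13.0 kb. The positions of maximum signal spanned a median of 366.5 bp between replicates, against 513 bp in all recurrent regions, and 3 of 36 spanned 10 bp or less, against 6.97% of all. Regions without a peak in all replicates were mostly weak: the strongest peak of each had a median percentile of 28.1 over the 10 such regions of Sox4 and of 9.53 over the 7 of Sox11, although 1 Sox11 region reached 63.9. The matching value over the regions of all genes is not given here, so it cannot be said whether these genes differ in this.

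Base composition moved with the difference between replicates 3 and 2, and less with that between replicates 1 and 2. Recurrent regions of the 7 genes had a median GC content of 44.3%, against 47.3% for all recurrent regions. Over all recurrent regions the log2 ratio of signal share, replicate 3 over replicate 2, fell with GC content: with the regions split by it into 10 classes of equal size, the median was 0.92 in the lowest class and -0.90 in the highest. For replicate 1 over replicate 2 the medians were -0.05 and -0.24. The 34 recurrent Sox4 and Sox11 regions had a median log2 ratio of 0.51, and 30 of them were above 0. Relative to the median of the GC class each region belongs to, the difference shrank to 0.06, with 20 of 34 above. The Sox1 region (GC 51.6%) had a log2 ratio of -0.81, and the Sox12 region (GC 52.5%) had 0.12, which was 0.70 above the median of its class. The peaks at SoxB start sites, absent in replicate 3, lay in GC-rich sequence: 59.7% at Sox2 and 64.4% at Sox21, with 54.5% in the Sox14 region. The part of base composition in the absence of these peaks from replicate 3 was not tested. Replicate 1 lacked peaks at Sox14 and Sox21 as well.

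**Figure D4:**
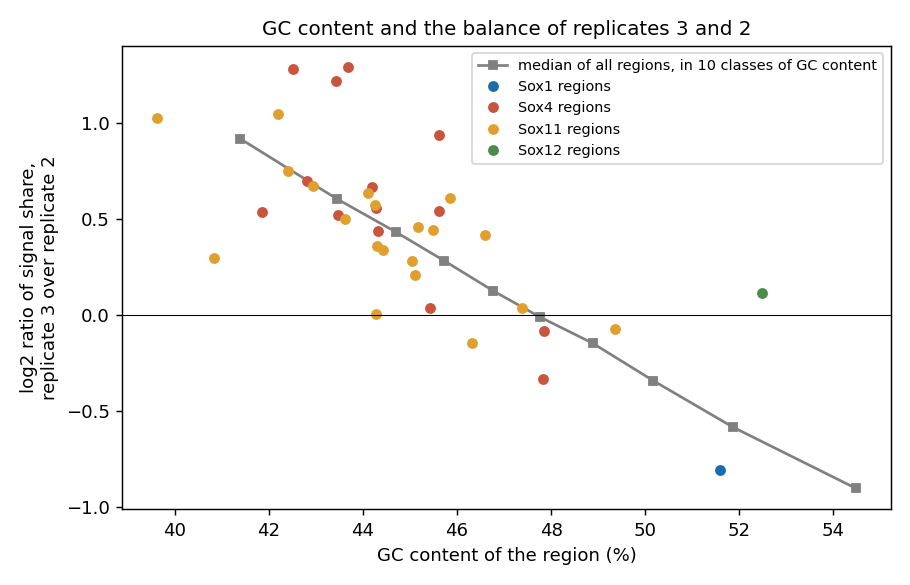
Log2 ratio of the share of list signal, replicate 3 over replicate 2 (vertical axis), against GC content in percent (horizontal axis) of the recurrent regions of Sox1, Sox4, Sox11 and Sox12. Grey squares joined by a line are medians of all recurrent regions in 10 classes of GC content. Most Sox4 and Sox11 regions lie above 0 and scatter around the grey line.

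Short motifs were counted in the 300-base windows of the 36 recurrent regions and of all 8916, on both strands. The Sox core ACAAAG was in 6 windows (16.7%, against 22.3% of all windows) and ACAAT in 12 (33.3%, against 29.4%). The E-box CAGCTG was in 10 (27.8%, against 23.9%), the homeobox core TAATTA in 3 (8.33%, against 4.56%), the octamer ATGCAAAT, bound by POU factors, in 1 (2.78%, against 1.28%) and the TCF/LEF core ATCAAAG, which shares letters with the first Sox core, in 0 (against 3.94%). These shares rest on few windows. Among the 7 promoters of 300 bases, ATGCAAAT was in 2, those of Sox1 and Sox12, against 1.75% of all promoters. CAGCTG was in 2 (Sox4 and Sox11, against 16.4%), and ACAAAG in 1 (Sox2, against 18.7%). The other Sox core, the TCF/LEF core and the homeobox core were in 0, against 30.7%, 3.76% and 5.25% of all promoters.

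Other Sox groups and genes that act beside Sox proteins are given by count. Of 6 SoxD and SoxE genes, which serve cartilage, neural crest and glia, 4 had a gene peak in all replicates (Sox5, Sox6, Sox8 and Sox9), with 8, 13, 2 and 6 recurrent regions. Sox10, the neural crest and glial member, had a gene peak in replicates 1 and 2 and 0 recurrent regions. Of 5 SoxF, SoxG and SoxH genes only Sox18, a vascular gene, had a gene peak in all. Of 8 POU genes, whose proteins pair with SoxB and SoxC proteins on DNA, 3 did (Pou3f2, Pou3f3 and Pou5f1), with 1, 7 and 1 recurrent regions. No base of the Pou5f1 neighbourhood (24.6 kb) lay under a peak, so Pou5f1 counts only through overlap of its body or flanks. Of 12 dermal condensate genes 7 did, among them Bmp4, Bmp3, Dkk1 and Trps1 with 4, 2, 2 and 5 recurrent regions. Of the 7 SoxB and SoxC genes 2 did, both SoxC, and of all protein-coding genes 15.5%.

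The genes most like Sox11 in the share of list signal within the gene body and 5 kb on either side, over 3 replicates and 3374 genes with a gene peak in all of them, were Foxd2 and Adamts3, with summed absolute log2 differences of 0.20 and 0.34. The shares were 0.00725%, 0.00367% and 0.00560% for Sox11 in replicates 1, 2 and 3. For Sox12 they were 0.00642%, 0.00633% and 0.00687%, and Nt5dc2 and Smim4 were nearest, tied at 0.10 because both drew on the same peaks. Replicate 2 was the lowest for Sox11, while Sox12 was nearly level.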

How the data were processed

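CUT&Tag libraries of E12 whisker pads were made by the authors with an antibody to H3K4me1. Per the submitters' processing notes and the study's methods, reads were aligned to mm10 (Bowtie2 2.3, SAMtools 0.1.19, bedtools) and peaks were called in each replicate by SEACR 1.3, stringent, top 1%, without IgG. The handling of duplicate reads is not given in the sources used here. The deposited total and maximum signal of a peak are whole-number coverage values that the authors did not scale to depth, so percentiles within a list and shares of list signal were computed (python 3.11.15, numpy 2.4.6).

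Peaks were assigned with GENCODE M21 start sites (54050 distinct protein-coding sites), and peaks sharing at least 1 bp were merged across replicates. GC content and sequences come from GRCm38.p6 (RefSeq), in which no peak ran past a chromosome end. All 7 genes matched the RefSeq promoter table. The overlap and assignment steps were tested on simulated data. Groups follow the titles. No test was run, because there is 1 group of 3 replicates. For each gene the text names the recurrent region of highest mean percentile, the region nearest the start site (or the strongest peak where none recurs), flanking and overlapping genes, up to 4 genes a list in list order and the 2 most alike genes. Further Sox4, Sox11 and Sox21 regions and Sox10 were named after their values were seen. The members and lists were chosen with earlier results of these data known. Alternatives were the flank, distance limit, list cut, overlap, peak joining, signal measure, start-site window and leaving out each replicate.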

Additional observations from a re-analysis of the deposited data

How the results depend on the processing

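Of 161 values recomputed under an alternative, over 21 results, 130 held and 31 moved. A value held if its change was smaller than the spread between replicates or, for counts, at most a factor of 1.5. Counts that held could still change by more than that spread. With the strongest 10000 peaks of each list, assigned peaks fell from 48.7 (SD 5.51) to 33.3. Sox11 peaks fell from 24.7 (SD 2.08) to 17.3. With 1 kb in place of 5 kb around the gene body, 1 of the 7 genes had a gene peak in all replicates instead of 2. With a limit of 200 kb, 31 peaks per replicate were assigned instead of 48.7, and 22 regions were recurrent instead of 36. A reciprocal overlap of 50% also left 22. With the stronger 50% of each list, the values were 1 gene with a gene peak in all replicates, 2 per replicate instead of 4, 25.7 assigned peaks and 17 recurrent regions. The bases of the 7 neighbourhoods under peaks fell from 6.57% to 5.33% with the strongest 10000 peaks of each list and to 4.60% with the stronger 50%. Leaving out each replicate gave 2 to 3 genes with a gene peak in all, 45.5 to 50.5 assigned peaks and 37 to 40 recurrent regions. Sox14 and Sox21 rest on replicate 2, without which both have 0 peaks. Without replicate 1, Sox2 keeps 1 peak per replicate instead of 1.67, and it has 0 with the strongest 10000 peaks or the stronger 50%. Sox4 fell from 19.3 peaks to 11.3 with the 200 kb limit and to 9.67 with the stronger 50%, and Sox11 from 24.7 to 15.7 and 14. Among single genes 21 of 110 values moved. No paired analysis was possible because there is 1 group and no test. Reads and IgG signal were not analysed here, and signals are not scaled to depth.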
